A study of Mus musculus with 12 samples.

Results

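Axon injury and regeneration genes are genes that neurons switch on when an axon is cut or that neurons use when an axon grows. They were taken by symbol from the deposited gene tables, and all 8 (Gap43, Sprr1a, Ecel1, Atf3, Sox11, Klf6, Klf7 and Gadd45a) were found among 24346 genes. Gap43 was the most abundant of them and lay lower 12 weeks than 7 weeks after injection, without passing the test over all genes. Sprr1a was not detectable. None of the 7 that could be tested differed detectably between synuclein fibrils and saline.

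RNA was measured in 12 libraries from the midbrain of C57BL/6 mice, with 3 libraries in each of 4 groups. The groups were preformed fibrils of G51D α-synuclein at 12 weeks, saline at 12 weeks, G51D fibrils at 7 weeks and saline at 7 weeks after injection. G51D is a variant of the human protein linked to familial Parkinson's disease. Every mouse was injected into the substantia nigra on both sides, with fibrils at 20 µg (5 µg/µL) or with saline, so an injection tract was common to all groups and no group was uninjected. The dissected midbrain was sorted for cells carrying hKO1, the fluorescent protein used to mark dopaminergic neurons. The labels give neither the age of the mice nor the promoter behind hKO1. Nothing in the labels says that replicates came from separate animals, so p-values measure only the spread between these samples.

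In peripheral nerve, an axon cut is signalled back to the cell body by kinases that include DLK and JNK, and the transcription factors Jun, Atf3, Sox11, Klf6 and Klf7 then drive genes of regrowth. Gap43 and Sprr1a are products of that programme which act in the growing axon. Most central neurons of adult mammals regrow poorly, and several of these genes stay low in them after injury. Midbrain dopaminergic neurons are among the neurons that keep Gap43 in adult life, and their axons form very large terminal trees in the striatum.

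Libraries held 2506730 to 5533324 assigned fragments. Replicate 2 of synuclein at 12 weeks detected 17409 genes, where the other 11 libraries detected 19960 to 21135, and the 3 synuclein libraries at 12 weeks were the least alike of any group. Each comparison that uses replicates 1 and 2 of that group was also made without them, which leaves a single library in the group. The sorted material was mixed. Summed over 10 dopaminergic markers, all of them detected, levels were 649 to 751 CPM (counts scaled to a common library size) for synuclein and 542 to 1155 CPM for saline at 12 weeks, against 687 to 2496 CPM for synuclein and 1306 to 2097 CPM for saline at 7 weeks. Summed over 8 oligodendrocyte markers, they were 26115 to 37700 and 24935 to 42709 CPM for synuclein and saline at 12 weeks, against 16536 to 19808 and 15747 to 24851 CPM at 7 weeks. Summed over 6 endothelial markers, levels were 7693 to 12238 CPM for synuclein and 7145 to 9418 CPM for saline at 12 weeks. At 7 weeks the endothelial sums were 9116 to 13668 CPM for synuclein and 9944 to 17437 CPM for saline. In such bulk samples, fewer cells of a type and less RNA per cell cannot be told apart.

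Levels of different genes were compared per transcript length, as the mean FPKM over the 12 libraries (fragments scaled to transcript length and library size). Gap43 led with 139.7 ± 104.1 FPKM (SD, n = 12), at the 97th percentile of all genes. Klf7 with 68.4 ± 19.9 FPKM and Klf6 with 60.2 ± 17.2 FPKM came next and lay within each other's spread. Atf3 with 12.3 ± 7.5 FPKM and Gadd45a with 11.4 ± 6.4 FPKM also overlapped. Sox11 with 2.50 ± 0.68 FPKM and Ecel1 with 0.993 ± 0.586 FPKM were low, and Sprr1a was close to 0. Gap43, Klf6 and Klf7 were thus readily measured, while Ecel1 rested on 3 to 20 fragments per library.

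**Figure D1:**
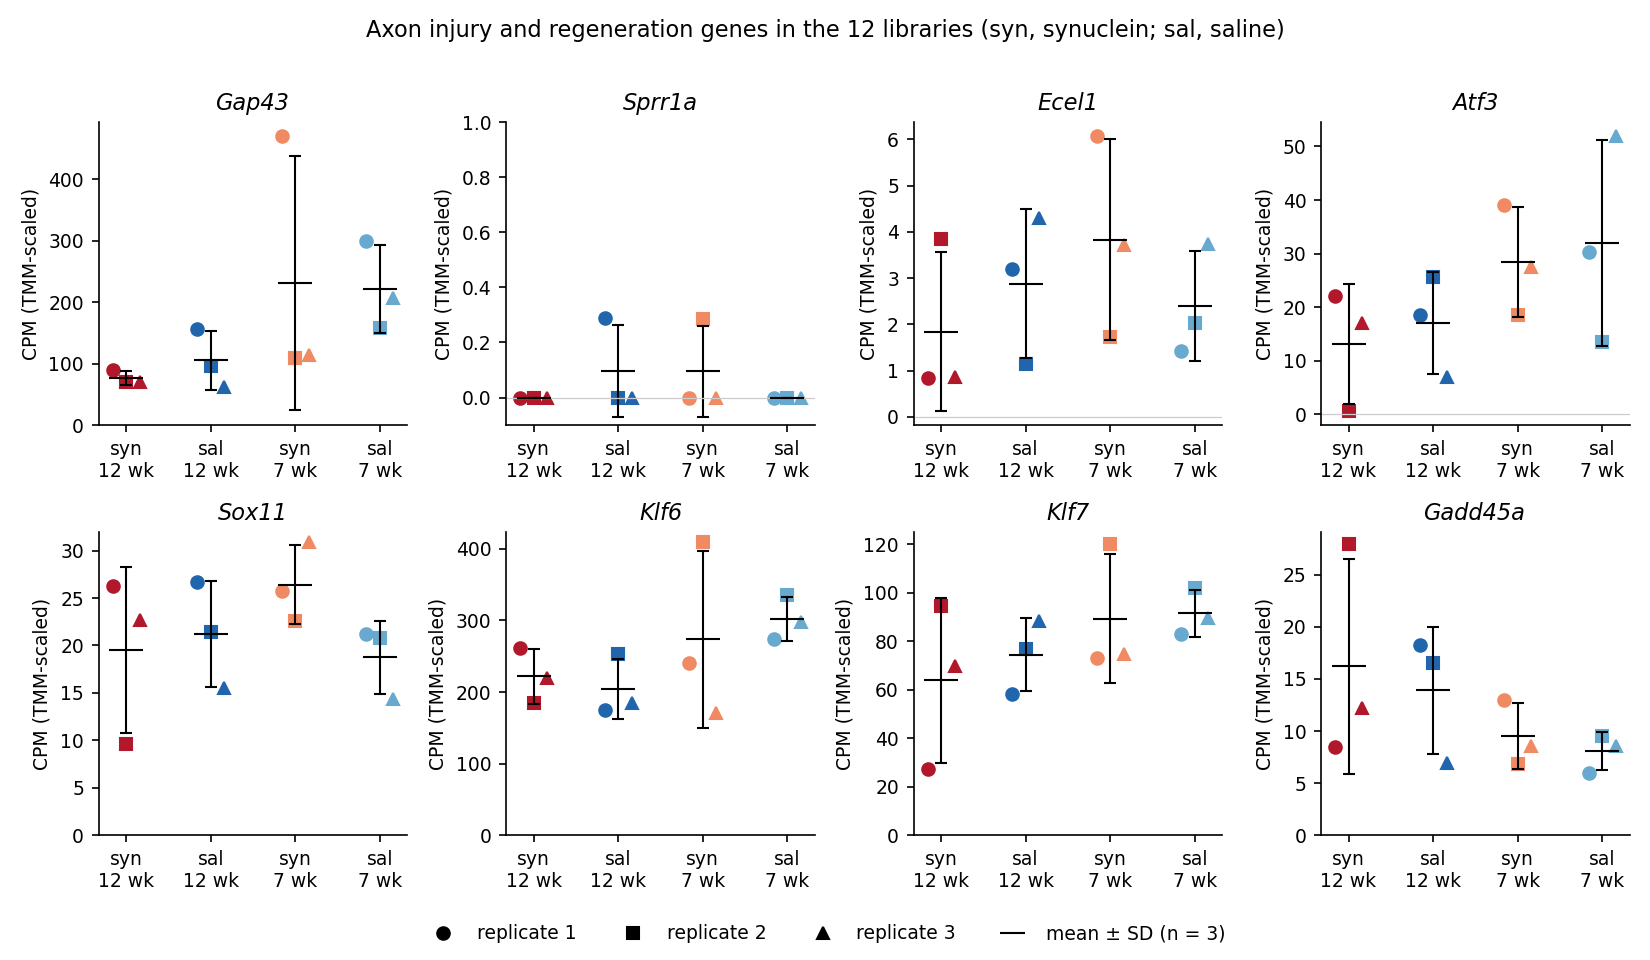
Level of each gene in every library, in CPM after TMM scaling (y axis, linear, 1 scale per gene), by group (x axis); each symbol is 1 library, and black bars are the mean ± SD of 3 libraries. Gap43 lay at 62.6 to 156 CPM in the 12-week libraries and at 109 to 470 CPM in the 7-week ones, while Sprr1a had 1 fragment in each of 2 libraries and none in the other 10.

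Of the products that act in the axon, Gap43 varied most between the times. It encodes a protein of growth cones and presynaptic terminals that binds calmodulin and is phosphorylated by protein kinase C, and lies at chr16:42248561-42340651 in the deposited files, whose model also spans the microRNA gene Mir6540. Gap43 read 90.0, 69.9 and 69.4 CPM in the synuclein libraries and 156, 96.6 and 62.6 CPM in the saline libraries at 12 weeks. Readings at 7 weeks were 470, 109 and 115 CPM after synuclein and 299, 158 and 206 CPM after saline. Every 12-week library was below every 7-week library of its own treatment, although over both treatments the ranges met, since saline replicate 1 at 12 weeks was above 2 synuclein libraries at 7 weeks.

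The mean of Gap43 was 90.8 ± 34.7 CPM at 12 weeks and 226 ± 138 CPM at 7 weeks (SD, n = 6 each). The log2 fold change of 12 against 7 weeks over both treatments was −1.33 ± 0.33 (SE), with a 95% interval of −2.02 to −0.65, an unadjusted p of 0.00067 and an adjusted p of 0.066 (edgeR's quasi-likelihood test, Benjamini-Hochberg over 17380 genes). Within synuclein it was −1.60 ± 0.46 (adjusted p = 0.41, edgeR), but −0.53 without replicate 1 at 7 weeks, and within saline −1.07 ± 0.46 (adjusted p = 0.60, edgeR). Over the 23 alternative fits of the first comparison the adjusted p ran between 0.0041 and 0.31, under 0.05 in 4 of them: DESeq2 (0.0041), the fit with replicate numbers as a block (0.010), the fit without a filter on low counts (0.026) and the fit without replicate 3 of synuclein at 7 weeks (0.035). Without replicate 1 of synuclein at 7 weeks, the highest Gap43 library, the fold over both treatments was −0.80, and without replicates 1 and 2 of synuclein at 12 weeks it was −1.41.

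Between the treatments Gap43 showed no detectable difference. At 12 weeks it averaged 76.5 ± 11.7 CPM after synuclein and 105 ± 47.4 CPM after saline (SD, n = 3 each), a log2 fold change of −0.46 ± 0.46 with an interval of −1.42 to 0.50. At 7 weeks it averaged 231 ± 207 CPM after synuclein and 221 ± 71.6 CPM after saline, a log2 fold change of 0.07 ± 0.45 with an interval of −0.88 to 1.01. That value rested on 1 library: without replicate 1 of synuclein at 7 weeks it was −0.98.

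Gap43 varied with the neuronal markers of the libraries. Across the 12 libraries its log2 CPM had a Pearson correlation of 0.91 and a Spearman correlation of 0.87 with the mean of the 10 dopaminergic markers. It was 0.80 over the 10 libraries left when those farthest from the median of the markers were dropped, 0.91 over the 6 libraries at 12 weeks and 0.79 over the 6 at 7 weeks. With 10 pan-neuronal markers the Pearson correlation was 0.88 over all 12, 0.35 at 12 weeks and 0.90 at 7 weeks. These values describe the libraries, since both measures of a pair come from the same RNA and share its scaling.

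Set against the pan-neuronal markers, Gap43 did not differ detectably between the times. Its log2 CPM minus their mean was 1.18 ± 0.46 at 12 weeks and 1.59 ± 0.50 at 7 weeks (SD, n = 6 each), a difference of −0.41 with a two-sided exact permutation p of 0.155 over 400 regroupings within treatments. That p was 0.045 without replicate 2 of saline at 7 weeks, with a difference of −0.54. Of all 17380 genes set against the pan-neuronal markers in the same way, 92.2% had a positive difference, with a median of 0.71. The p for Gap43 is thus against no difference, and not against the other genes. Set against the dopaminergic markers, the difference was −0.07 (exact permutation p = 0.82). Over both treatments 10 of the 10 dopaminergic markers had negative folds at 12 against 7 weeks, with a median log2 fold change of −1.27, and 9 of the 10 pan-neuronal markers, with a median of −1.05. Of all genes, 47% had a positive fold and 0.293% passed the edgeR test as lower. Past it were 2 of the dopaminergic markers, Th and Slc18a2, and 1 pan-neuronal marker, Snap25. The part of these markers in the lower Gap43 level was not tested, and subtracting them does not test it.

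**Figure D2:**
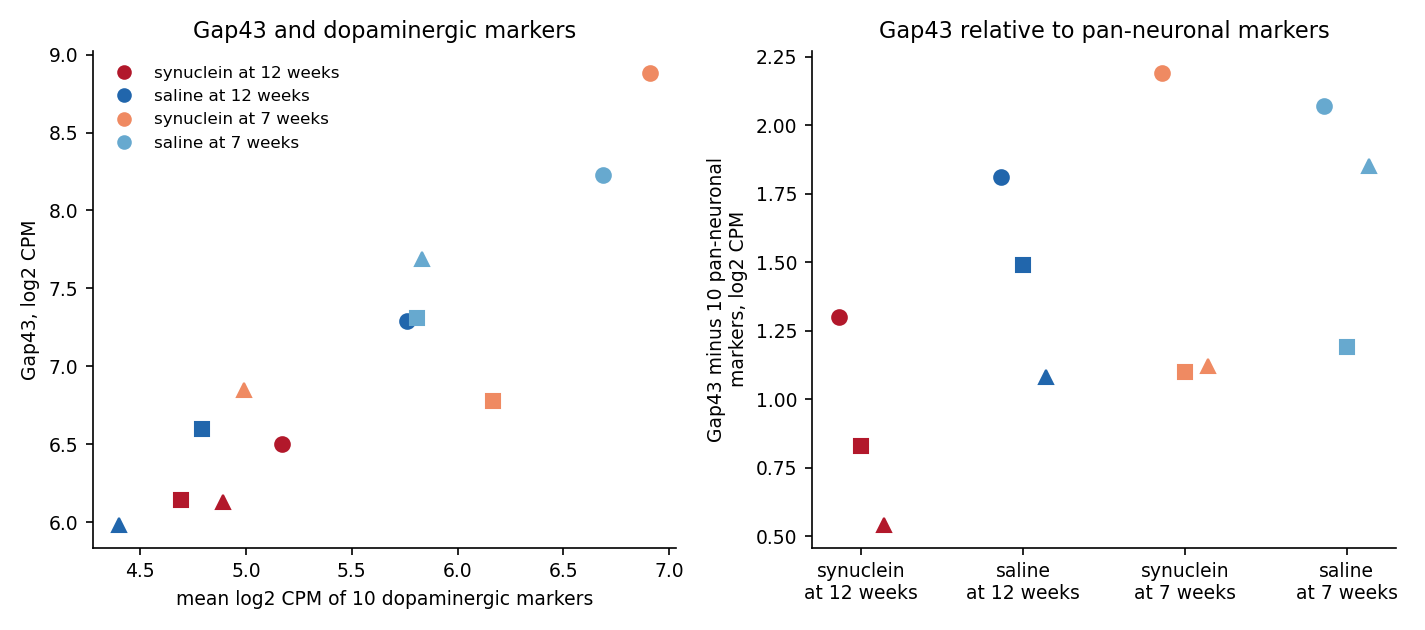
Left, Gap43 (y axis, log2 CPM) against the mean of 10 dopaminergic markers (x axis, log2 CPM) in the 12 libraries. Right, Gap43 minus the mean of 10 pan-neuronal markers (y axis, log2 CPM) by group; circles, squares and triangles are replicates 1, 2 and 3. The points on the left climb together (Pearson r = 0.91), and the 12-week and 7-week libraries on the right overlap.

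Sprr1a, a small proline-rich protein that is close to absent from intact neurons and among the most strongly induced genes after peripheral nerve injury, was not detectable at this depth. Its model lies at chr3:92483954-92485881. A single fragment was assigned to it in replicate 1 of saline at 12 weeks and in replicate 2 of synuclein at 7 weeks, and none in the other 10 libraries, out of 44651274 fragments in all. A count of 0 allows up to 3 fragments, which is 0.542 to 1.20 CPM before TMM scaling, depending on the library. This limit covers counting error only. Sprr1a did not pass the filter on low counts and entered no test, so 7 genes were tested.

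The sequence before the Sprr1a start is shown with that of Atf3 because Jun and Atf3, the bZIP factors of the injury programme, bind AP-1 and ATF/CRE motifs. Each line holds the 250 bases before the RefSeq start in GRCm38.p6, on the gene's own strand (minus for both), at chr3:92485882-92486131 for Sprr1a and chr1:191183334-191183583 for Atf3. Capitals mark AP-1 matches in Sprr1a, and in Atf3 the short core of the CRE motif.
Sprr1a: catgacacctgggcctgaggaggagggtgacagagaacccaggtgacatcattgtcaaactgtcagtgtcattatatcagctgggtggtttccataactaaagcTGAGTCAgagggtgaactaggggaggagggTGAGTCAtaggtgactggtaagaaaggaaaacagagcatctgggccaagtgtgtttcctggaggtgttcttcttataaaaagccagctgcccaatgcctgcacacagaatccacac
Atf3: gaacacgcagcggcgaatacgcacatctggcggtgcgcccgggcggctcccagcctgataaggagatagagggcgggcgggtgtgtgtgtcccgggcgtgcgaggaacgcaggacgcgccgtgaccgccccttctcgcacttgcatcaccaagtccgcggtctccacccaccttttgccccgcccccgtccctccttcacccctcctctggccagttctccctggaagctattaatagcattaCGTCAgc
Both strands were searched for the AP-1 consensus TGACTCA, whose reverse complement is TGAGTCA, for the full ATF/CRE consensus TGACGTCA, and, added later, for its shorter core TGACG. RefSeq promoters were given for 7 of the 8 genes, all but Gap43. Sprr1a held 2 AP-1 matches, starting 146 and 116 bases before the start, and the other 6 promoters held none, against 4.46% of 32851 RefSeq promoters of the same length. None of the 7 held the full ATF/CRE consensus, which 1.55% of all promoters did. Of the 7, Atf3 held the core, 7 bases before its start, as 17.8% of all promoters did. A match describes letters only and says nothing of binding.

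Ecel1, an endopeptidase-like membrane protein that is known in mouse for nerve injury-induced expression and for the branching of motor axons, was near the limit of detection (chr1:87147655-87156356). It read 0.846, 3.84 and 0.850 CPM after synuclein and 3.19, 1.14 and 4.31 CPM after saline at 12 weeks. At 7 weeks it read 6.07, 1.72 and 3.71 CPM after synuclein and 1.43, 2.02 and 3.73 CPM after saline. All 4 groups overlapped. Its log2 fold change was −0.63 ± 0.95 for synuclein against saline at 12 weeks (95% interval −2.63 to 1.37) and 0.67 ± 0.94 at 7 weeks (−1.30 to 2.65). For 12 against 7 weeks it was −0.39 ± 0.67 over both treatments, −1.04 ± 0.95 within synuclein and 0.26 ± 0.94 within saline. Single libraries moved these values: leaving out each in turn gave −1.70 to −0.19 for synuclein against saline at 12 weeks, 0.19 to 1.14 at 7 weeks and −2.09 to −0.52 for 12 against 7 weeks within synuclein.

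Among the transcription factors, Atf3 varied most on the log2 scale. It is a bZIP factor induced by axon injury and other stress, and is held to be near absent from uninjured neurons (chr1:191170297-191183333). Atf3 read 22.0, 0.549 and 17.0 CPM after synuclein and 18.6, 25.6 and 6.89 CPM after saline at 12 weeks. At 7 weeks it read 39.0, 18.6 and 27.4 CPM after synuclein and 30.3, 13.6 and 51.9 CPM after saline. Replicate 2 of synuclein at 12 weeks, the library with the fewest genes detected, held 2 fragments of it, and without that library the groups still overlapped. Over the 12 libraries the SD of log2 CPM was 1.44 for Atf3, against a median of 0.625 over the 17380 genes tested. Without replicate 2 of synuclein at 12 weeks it was 0.758 for Atf3, against a median of 0.56. Over all 12 libraries it was 0.531 for Klf7, 0.452 for Sox11 and 0.397 for Klf6.

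Atf3 did not differ detectably in any comparison. The log2 fold change over both treatments of 12 against 7 weeks was −1.01 ± 0.53 (95% interval −2.12 to 0.11, edgeR adjusted p = 0.58). For synuclein against saline it was −0.37 ± 0.75 at 12 weeks and −0.17 ± 0.74 at 7 weeks. The value at 12 weeks was 0.22 without replicate 2 of synuclein at 12 weeks, so its sign rested on that library.

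Sox11, an HMG-box factor of developing neurons that promotes axon growth in sensory neurons, was low but steady (chr12:27334268-27342718). It read 26.2, 9.60 and 22.7 CPM after synuclein and 26.7, 21.4 and 15.5 CPM after saline at 12 weeks. The 7-week libraries read 25.7, 22.6 and 30.9 CPM after synuclein and 21.2, 20.8 and 14.3 CPM after saline. The 7-week synuclein libraries were all above the 7-week saline libraries, which made Sox11 the 1 of 7 genes whose groups did not overlap in that comparison, where 8.45% of all genes tested did not overlap. Its log2 fold change there was 0.49 ± 0.44, with an interval of −0.43 to 1.42 and an edgeR adjusted p of 1. At 12 weeks it was −0.12 ± 0.44, and the difference between the 2 effects was −0.61 ± 0.62 (edgeR adjusted p = 0.96). For 12 against 7 weeks it was −0.13 ± 0.31 over both treatments, −0.44 ± 0.44 within synuclein and 0.17 ± 0.44 within saline.

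Across the 12 libraries Sox11 tracked 6 astrocyte markers with a Pearson correlation of 0.84 and a Spearman correlation of 0.69. Without the 2 libraries farthest from the median of these markers, replicate 2 of synuclein at 12 weeks and replicate 3 of saline at 7 weeks, the correlation was 0.56. The astrocyte list had the largest correlation with Sox11 of all marker lists, followed by pericytes and smooth muscle with 0.72. Summed over the list, the astrocyte markers stood at 203 to 300 CPM for synuclein and 249 to 277 CPM for saline at 12 weeks, against 253 to 382 CPM for synuclein and 183 to 301 CPM for saline at 7 weeks. Their part in the Sox11 values was not tested.

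Klf6 and Klf7 are zinc-finger factors of the Krüppel-like family that favour axon growth, where relatives such as Klf4 and Klf9 restrain it. Klf6 (chr13:5861489-5870393) read 261, 184 and 220.2 CPM after synuclein and 175, 253 and 185 CPM after saline at 12 weeks. The 7-week libraries read 240.4, 410.1 and 170.3 CPM after synuclein and 274, 335 and 298 CPM after saline. The 12-week saline libraries were all below the 7-week saline libraries, whereas the synuclein libraries overlapped between the times. The log2 fold change of 12 against 7 weeks was −0.43 ± 0.20 over both treatments (unadjusted p = 0.043, adjusted p = 0.48, edgeR), −0.30 ± 0.28 within synuclein and −0.57 ± 0.28 within saline. Within synuclein it was 0.14 without replicate 2 of synuclein at 7 weeks, the highest library. For synuclein against saline Klf6 had 0.12 ± 0.28 at 12 weeks (95% interval −0.47 to 0.71) and −0.14 ± 0.28 at 7 weeks (−0.74 to 0.45).

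Klf7 lies at chr1:64035671-64121389, in a model that also spans the microRNA gene Mir6899. It read 27.4, 94.3 and 69.7 CPM after synuclein and 58.3, 76.7 and 88.2 CPM after saline at 12 weeks. At 7 weeks it read 72.9, 120.2 and 74.9 CPM after synuclein and 83.0, 102 and 89.5 CPM after saline. The lowest library, replicate 1 of synuclein at 12 weeks, was also the lowest for Ecel1. Its log2 fold change of 12 against 7 weeks over both treatments was −0.39 ± 0.25, with an interval of −0.91 to 0.13. For synuclein against saline it was −0.22 ± 0.35 at 12 weeks and −0.03 ± 0.35 at 7 weeks, the narrowest intervals after those of Klf6.

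Klf6 and Klf7 varied with markers of other cells. Klf7 had a Pearson correlation of 0.66 with 6 endothelial markers (Spearman 0.69) and of −0.77 with 5 ependymal markers (Spearman −0.71) over the 12 libraries. Without the 2 libraries farthest from the median of the ependymal markers, replicate 1 of synuclein and replicate 2 of saline at 12 weeks, the latter value was −0.66. Klf6 had a Pearson correlation of −0.71 with 8 oligodendrocyte markers (Spearman −0.65), and of −0.58 without the 2 farthest libraries. These lists had the largest correlations with each gene of all marker lists. Klf6 also had −0.66 with oligodendrocyte precursor markers and −0.64 with blood markers, and Klf7 −0.59 with fibroblast markers. The ependymal markers summed to 7.95 to 446 CPM for synuclein and 30.4 to 215 CPM for saline at 12 weeks, against 5.15 to 38.9 CPM for synuclein and 6.89 to 13.9 CPM for saline at 7 weeks, and none was at 0 in all libraries. Their part in the Klf6 and Klf7 levels was not tested.

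Gadd45a, a stress-induced protein of growth arrest and DNA repair that is also induced in injured sensory neurons, was the 1 gene of the 7 with a higher mean at 12 weeks. It read 8.46, 28.0 and 12.2 CPM after synuclein and 18.3, 16.5 and 6.89 CPM after saline at 12 weeks. Readings at 7 weeks were 13.02, 6.87 and 8.57 CPM after synuclein and 6.01, 9.52 and 8.61 CPM after saline. The 12-week libraries overlapped the 7-week ones in both treatments. The log2 fold change of 12 against 7 weeks over both treatments was 0.78 ± 0.42 (95% interval −0.10 to 1.66, edgeR adjusted p = 0.60), and between the treatments it was 0.22 ± 0.58 at 12 weeks and 0.24 ± 0.60 at 7 weeks. The deposited model spans chr6:67035096-67080652 together with E230016M11Rik, so reads of these genes may be split uncertainly. That gene ranged between 2.02 and 10.1 CPM and had a log2 fold change of 0.15 ± 0.52 over both treatments.

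Relative to the pan-neuronal markers, Gadd45a stood at −1.45 ± 0.64 at 12 weeks and −2.85 ± 0.32 at 7 weeks on the log2 scale (SD, n = 6 each). The difference of 1.40 had a two-sided exact permutation p of 0.005, the smallest that 400 regroupings allow, and 6 of 6 libraries at 12 weeks were above every library at 7 weeks. It was 1.15 to 1.55 when each library was left out in turn, and 1.18 without replicates 1 and 2 of synuclein at 12 weeks. This difference was computed for the 7 tested genes, and its p-values are not adjusted. Of all 17380 genes set against these markers in the same way, 35.6% had an exact permutation p under 0.05 and 9.93% the smallest p possible. A positive difference was found for 92.2% of them, with a median of 0.71, so nothing particular to Gadd45a is read from its value. Sox11 (0.58, exact permutation p = 0.11), Klf6 (0.37, p = 0.25), Klf7 (0.31, p = 0.43) and Ecel1 (0.37, p = 0.465) had positive differences of this kind, and Atf3 a negative one (−0.60, p = 0.555).

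**Figure D3:**
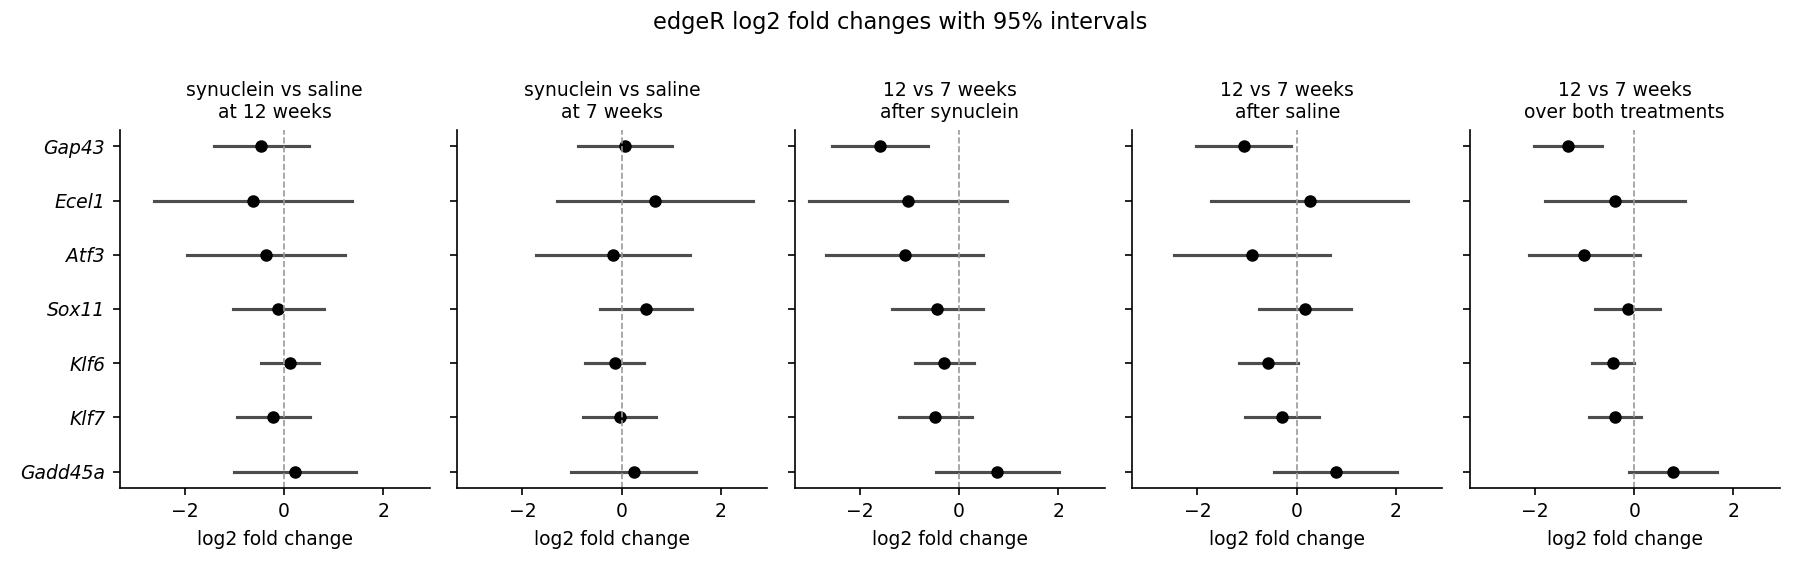
Log2 fold changes (x axis) of the 7 tested genes (y axis) in 5 comparisons, from edgeR fits over all 12 libraries; points are estimates and lines are 95% intervals. Every interval between synuclein and saline crosses 0, and over both treatments those of Gap43 (−2.02 to −0.65) and Klf6 (−0.85 to −0.01) lie below 0 before any adjustment.

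Counted together, none of the 7 tested genes passed an adjusted p of 0.05 in edgeR in any of the 6 comparisons. For synuclein against saline, 0% of the 17380 genes passed at 12 weeks and 0% at 7 weeks, and 0% did so for the difference of the effects. The same was true of 12 against 7 weeks after synuclein (0%) and after saline (0%), whereas 0.834% passed over both treatments. At an unadjusted p under 0.05, none of the 7 passed between the treatments at 12 weeks (5.57% of all genes) or at 7 weeks (1.64%), nor for the difference (4.49%). Gap43 did so after synuclein (7.58% of all genes) and after saline (7.42%), and Gap43 and Klf6 over both treatments (9.82%). DESeq2 called Gap43 over both treatments (2.59% of all genes) and no other of the 7 in any comparison.

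Groups that did not overlap are counted here beside the share over all genes. None of the 7 separated synuclein from saline at 12 weeks (10.7% of all genes), and only Sox11 did at 7 weeks (8.45%). For 12 against 7 weeks, Gap43 had groups without overlap after synuclein (12.3%), Gap43 and Klf6 after saline (16.2%), and none over both treatments (0.944%). Whether the 7 genes differ from these shares was not tested. The median log2 fold change of the 7 was −0.22 for synuclein against saline at 12 weeks and 0.07 at 7 weeks, beside medians of −0.04 and 0.01 over all genes. For 12 against 7 weeks it was −0.48 after synuclein, −0.30 after saline and −0.39 over both treatments, beside −0.06, 0.01 and −0.03 over all genes. The comparison over both treatments shares libraries with those after synuclein and after saline, and each of these shares libraries with the first pair.

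The upstream kinases and Jun showed no detectable difference. The 16 listed genes of DLK and JNK signalling were all tested and none passed in any comparison by edgeR. Jun, the AP-1 factor activated by JNK, averaged 154 ± 52.5 CPM after synuclein and 129 ± 26.9 CPM after saline at 12 weeks, against 134 ± 32.2 CPM after synuclein and 157 ± 55.1 CPM after saline at 7 weeks (SD, n = 3 each). Its log2 fold change between synuclein and saline was 0.26 ± 0.31 at 12 weeks and −0.23 ± 0.31 at 7 weeks. Mapk8ip3, a JNK scaffold carried along axons, had values of 0.12 ± 0.26 at 12 weeks and −0.07 ± 0.26 at 7 weeks. Jund had 0.21 ± 0.27 at 12 weeks and 0.00 ± 0.27 at 7 weeks.

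Other genes linked to axon regrowth mostly had negative folds, while those past the test went both ways. Of 32 listed, 31 were tested, and over both treatments at 12 against 7 weeks 24 had a negative fold, with a median of −0.31 beside −0.03 over all genes, of which 47% had a positive fold. Basp1 and Stmn2 fell by the edgeR test, and Ncam1 and Stmn4 rose, which is 2 lower (0.293% of all genes) and 2 higher (0.541%). In the other 5 comparisons none of the 31 passed.

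Basp1, a membrane protein of growth cones that resembles Gap43 in its biochemistry, fell to 28.0 ± 5.2 CPM at 12 weeks, against 68.9 ± 32.8 CPM at 7 weeks (SD, n = 6 each; log2 fold change −1.30 ± 0.28, edgeR adjusted p = 0.044). All 6 of its 12-week libraries (21.0 to 33.1 CPM) were below all 6 of its 7-week libraries (40.9 to 126 CPM). Stmn2, a microtubule regulator of growing axons, fell to 100.2 ± 13.8 CPM at 12 weeks, against 207 ± 84.2 CPM at 7 weeks (−1.04 ± 0.22, edgeR adjusted p = 0.035), again with no overlap. Ncam1, an adhesion molecule of neurons and glia, rose to 461 ± 89.2 CPM at 12 weeks, against 239 ± 47.3 CPM at 7 weeks (0.95 ± 0.18, edgeR adjusted p = 0.026), with no overlap. Stmn4, a relative of Stmn2, rose to 232 ± 68.6 CPM at 12 weeks, against 107 ± 35.9 CPM at 7 weeks (1.12 ± 0.24, edgeR adjusted p = 0.044), with 1 saline library at 12 weeks inside the 7-week range. The 4 genes were named for passing this test, so lack of overlap in the same libraries is no further support. Of all genes, 0.386% were lower and 0.558% higher at 12 weeks without overlap. None of these 4 passed between the treatments, with log2 folds of −0.13 to 0.06 for synuclein against saline at 12 weeks and −0.05 to 0.29 at 7 weeks.

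**Figure D4:**
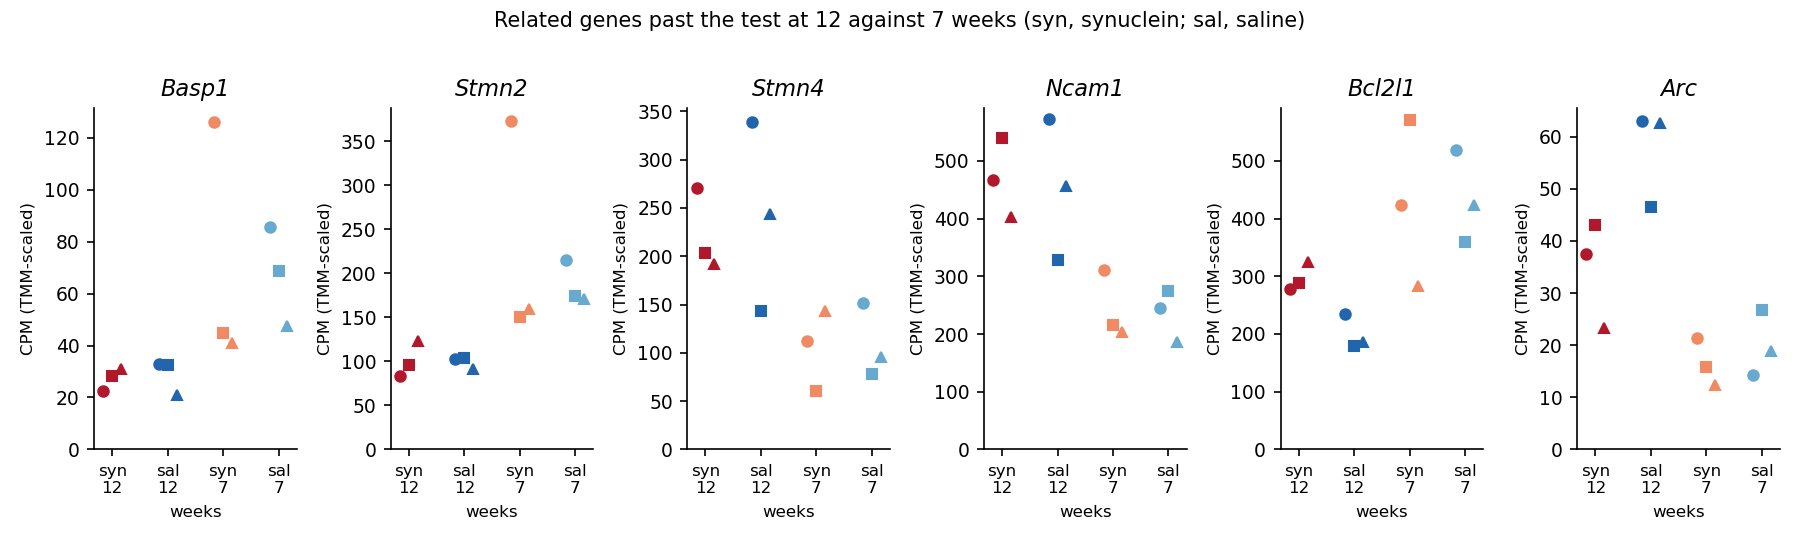
CPM after TMM scaling (y axis, from 0) of the 6 genes of the related lists that passed the test of 12 against 7 weeks over both treatments, by group (x axis); circles, squares and triangles are replicates 1, 2 and 3. Basp1, Stmn2 and Bcl2l1 are lower at 12 weeks and Stmn4, Ncam1 and Arc are higher, by the group means of both treatments.

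These calls were near the threshold. With limma on log2(FPKM + 1) all 4 were lost (adjusted p = 0.11 for Basp1, 0.088 for Stmn2, 0.088 for Stmn4 and 0.056 for Ncam1). With limma-voom that of Basp1 was lost (0.075), while Stmn2 (0.039), Stmn4 (0.035) and Ncam1 (0.018) stayed. DESeq2, which called 2.59% of all genes, kept all 4 (adjusted p = 0.0022, 0.001, 0.0012 and 7.3e-05 in the same order). The edgeR fit with the replicate block, which called 1.42% of all genes, also kept them (0.027, 0.02, 0.0046 and 0.0064). Leaving out each library in turn, Basp1 stayed past it in 3 of 12 fits, Stmn2 in 5, Stmn4 in 5 and Ncam1 in 8, with folds of −1.42 to −0.92, −1.14 to −0.75, 0.98 to 1.28 and 0.88 to 1.06. The Basp1 call held without replicate 2 or 3 of synuclein at 12 weeks or replicate 3 of synuclein at 7 weeks, and was lost without any other library. The Stmn2 and Stmn4 calls held without the same 3 libraries or replicate 2 of saline at 12 weeks, and without 1 more, which was replicate 2 of synuclein at 7 weeks for Stmn2 and replicate 1 of saline at 7 weeks for Stmn4. The Ncam1 call was lost without replicate 1 or 3 of saline at 12 weeks, replicate 2 of synuclein at 7 weeks or replicate 3 of saline at 7 weeks. Leaving out replicates 1 and 2 of synuclein at 12 weeks together leaves a single library in that group. The log2 folds were then −1.21 for Basp1, −0.90 for Stmn2, 1.01 for Stmn4 and 0.83 for Ncam1. The neuronal markers had mostly negative folds, as given beside Gap43. All 8 oligodendrocyte markers had positive folds, with a median of 0.86. Of these 8, 4 passed the edgeR test (Cldn11, Cnp, Mbp and Mobp), where 0.541% of all genes passed as higher. The part of the neuronal and oligodendrocyte markers in the changes of Basp1, Stmn2, Stmn4 and Ncam1 was not tested.

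Genes around injury and axon loss gave 1 further call in each of the axon degeneration and immediate early lists. Bcl2l1, which encodes the survival protein Bcl-xL, was the 1 of 13 axon degeneration genes past the test (0.293% of all genes passed as lower), and fell to 248 ± 58.4 CPM at 12 weeks, against 430.0 ± 104.6 CPM at 7 weeks (−0.82 ± 0.18, edgeR adjusted p = 0.044). The times overlapped for Bcl2l1, at 179.8 to 324.5 CPM at 12 weeks and 282.6 to 571.5 CPM at 7 weeks. Its time fold was −1.12 ± 0.26 after saline and −0.52 ± 0.25 after synuclein. For synuclein against saline at 12 weeks it had 0.57 ± 0.25 (unadjusted p = 0.038, adjusted p = 0.89, edgeR). The call stayed past the threshold in 2 of the 12 leave-one-out fits, those without replicate 3 of synuclein at 12 or at 7 weeks. Arc, an immediate early gene of active neurons, was the 1 of 14 in its list (0.541% of all genes passed as higher) and rose to 46.0 ± 15.2 CPM at 12 weeks, against 18.2 ± 5.3 CPM at 7 weeks (1.29 ± 0.27, edgeR adjusted p = 0.034), staying past it in 3 of 12, those without replicate 2 or 3 of synuclein or replicate 2 of saline at 12 weeks. Arc overlapped between the times too, at 23.2 to 62.9 CPM at 12 weeks and 12.3 to 26.8 CPM at 7 weeks. Without replicates 1 and 2 of synuclein at 12 weeks the adjusted p was 0.35 for Bcl2l1 and 0.31 for Arc, and with limma on log2(FPKM + 1) it was 0.098 for Bcl2l1 and 0.071 for Arc. None of the 14 tested growth inhibitors and their receptors or the 20 tested family relatives passed in any comparison by edgeR. Of the inhibitors, Mag, a myelin protein that stops growth cones, had a log2 fold change of 0.85 ± 0.21 (adjusted p = 0.069, edgeR) and Rtn4, which encodes Nogo, 0.47 ± 0.17 (adjusted p = 0.29, edgeR) over both treatments. Mag is also on the list of oligodendrocyte markers, all of which had positive folds in that comparison.

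The genes most like each member over the 12 libraries were sought among 10628 candidates with a mean of at least 10 CPM, by Pearson correlation of log2 CPM. Gap43 was closest to Rwdd2a (0.931) and to Cplx1 (0.927), a presynaptic complexin. Sox11 was closest to Zfp219 (0.959) and to the potassium channel gene Kcnj5 (0.919). Klf7 was closest to Uap1 (0.945) and Slc44a2 (0.926), Atf3 to Gtf2e1 (0.941) and Tbce (0.937), and Klf6 to Parp4 (0.917) and Hipk1 (0.916). Gadd45a (Map1s and Rad52, 0.857 each) and Ecel1 (Rrs1, 0.834, and Zfp941, 0.831) had looser neighbours. These are descriptions of the libraries, and with so many candidates high values arise readily.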

How the data were processed

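RNA was measured by sequencing in 12 libraries of cells sorted for hKO1 from mouse midbrain. Per the labels' protocols, libraries came from Direct-zol RNA through SMARTer Ultra-Low cDNA, a method that keeps no strand. Per the submitters' processing notes, the authors used Bowtie2 2.2.3, TopHat2 2.0.13 and Cufflinks 2.2.1. No genome build is named in the sources used here. In 6 of the 7 genes with a RefSeq promoter, the gene start in the deposited files equals that in GRCm38.p6, so coordinates are read in that build and counted from 1.

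The authors deposited estimated counts and FPKM values per gene and library. The deposited estimated counts are scaled per library: 98.9% to 99.2% of values above 0 were whole multiples, within 0.02 fragments, of 1 step between 0.685 and 1.30, and dividing by it gave the assigned fragments. PCR copies were not separated from molecules. The estimated counts were rounded to whole numbers and fitted in edgeR 4.0.16 (R 4.3.3) with filterByExpr (17380 genes), TMM scaling, 1 mean per group over all 12 libraries and quasi-likelihood tests of 6 contrasts. The p-values were adjusted by Benjamini-Hochberg over the 17380 genes and called under 0.05. Errors of folds are standard errors. CPM values are TMM-scaled, and log2 CPM has a prior count of 2. Values relative to neuronal markers were tested by exact permutation within treatments. The procedure was tested on simulated counts.

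Alternatives were limma-voom (limma 3.58.1), DESeq2 1.42.0, other scalings and filters, recovered fragments, limma on log2(FPKM + 0.1) and log2(FPKM + 1), a replicate block, and leaving libraries out. The genes, the 6 related lists (113 genes), the marker lists and the tests were chosen with earlier results of these data known. Named are the 8 genes, the 2 genes most correlated with each, and of each related list the genes past the test or up to 3 of the most abundant, and not every fold of each is printed. Replicate numbers were not taken to pair the libraries, since the labels do not say so, and the block is an alternative.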

Additional observations from a re-analysis of the deposited data

How the results depend on the processing

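Of 994 fold values of the 7 tested genes over 42 results and 24 alternatives, 943 kept their direction and their side of the threshold, 47 changed sign without passing it and 4, all of Gap43, passed it. The number of genes called stayed at 0 in 5 comparisons. Over both treatments at 12 against 7 weeks it was 1, Gap43, with DESeq2, with no filter on low counts and with the replicate block, and 0 to 1 when each library was left out in turn. With the block Gap43 had a log2 fold change of −1.21 and over all genes 246 passed, against 145 without it; after saline alone 34 passed with it and 0 without. Same-numbered libraries had correlations of −0.06 to 0.11 in their deviations from the group means. Libraries of different numbers were not set beside them, so these values cannot decide whether the numbers pair libraries. The number of the 7 genes with an exact permutation p under 0.05 relative to neuronal genes was 1, and 1 to 2 when each library was left out, where 35.6% of all genes had such a p. The cause of these moves was not tested.

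For synuclein against saline at 7 weeks, Gap43 was −0.24 with limma-voom and with limma on log2(FPKM + 0.1) and log2(FPKM + 1), −0.18 with the replicate block and −0.98 to 0.40 on leaving out a library; Klf7 was 0.01 with upper quartile scaling and −0.30 to 0.10, Atf3 −0.57 to 0.38, Gadd45a −0.05 to 0.42 and Klf6 −0.56 to 0.10. At 12 weeks, leaving out a library gave −0.58 to 0.19 for Klf7, −0.91 to 0.22 for Atf3, −0.34 to 0.23 for Sox11 and −0.39 to 0.59 for Gadd45a. Without replicates 1 and 2 of synuclein at 12 weeks, Atf3 was 0.01, Sox11 0.11 and Gadd45a −0.18. For the difference of the effects, Gadd45a (−0.01) was 0.01 with DESeq2, RLE scaling and recovered fragments, 0.04 with no filter, 0.03 with at least 10 counts in 6 libraries and −0.61 to 0.37 on leaving out a library, where Klf7 gave −0.54 to 0.24, Atf3 −0.74 to 0.42 and Gap43 −0.82 to 0.55; Atf3 was 0.19 without the named pair. Leaving out a library gave −0.12 to 0.74 for Ecel1 after saline, −0.52 to 0.14 for Klf6 after synuclein and −0.24 to 0.04 for Sox11 over both treatments. Relative to neuronal genes, Atf3 gave −1.03 to 0.08 and Ecel1 was −0.01 without the pair. The fit of only the groups compared gives no separate value for the difference of effects or over both treatments, which use all 4 groups. DESeq2 called 449 genes over both treatments, against 145 by edgeR, 173 against 0 after saline, 59 against 0 after synuclein and 12 against 0 for synuclein against saline at 12 weeks.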

Other observations

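Ier2 and Hspb1, 2 abundant genes of the related lists, had treatment values of opposite signs at the times, without passing the test. Ier2, an immediate early gene, had a log2 fold change for synuclein against saline of 0.79 ± 0.26 at 12 weeks and −0.84 ± 0.26 at 7 weeks, and the difference of 1.63 ± 0.37 had an unadjusted p of 0.00032 and an adjusted p of 0.95 (edgeR). Hspb1, a small heat-shock protein induced in injured neurons and listed with the regeneration genes, averaged 567 ± 80.9 CPM after synuclein and 343 ± 124 CPM after saline at 12 weeks, against 466 ± 179 CPM after synuclein and 763 ± 427 CPM after saline at 7 weeks (SD, n = 3 each), with a difference of 1.43 ± 0.53 (edgeR adjusted p = 0.95). These 2 were picked after their values were seen, and opposite signs were not particular to them. For synuclein against saline, Dusp1 had 0.52 at 12 weeks and −0.19 at 7 weeks, and Klf2 0.42 at 12 weeks and −0.33 at 7 weeks. Btg2 had the reverse signs, −0.02 at 12 weeks and 0.34 at 7 weeks. Arc was negative at both times, −0.73 at 12 weeks and −0.28 at 7 weeks.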
